A study of Homo sapiens with 12 samples.

Results

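Irradiated Huh-7 tumours were set against unirradiated ones, 6 libraries against 6, whether or not the mice had also received the kinase inhibitor CS2164. Across both arms, genes of the AP-1 factor and growth factor response (FOSL1, AREG, DUSP4), the ID proteins, the Notch ligand JAG1 and the matrix collagen COL12A1 were higher after radiation. A part of the secreted products and enzymes of hepatocytes was lower, among them APOB, AHSG, CPS1, PKLR and GPAM, with log2 changes of -1.53 to -0.999. The lists that hold such genes shifted unevenly between the arms, as given below. The classical p53 targets CDKN1A and MDM2 did not pass the test, in a line that is p53 mutant. The main set of genes was picked by a rule: every irradiated library had to lie above, or below, every unirradiated one. Of the genes just named CPS1 and PKLR missed it, and other genes that passed the test but had libraries crossing over are described as well. Of 13521 tested genes, out of 19988 in the deposited table, 447 met the rule, which is 3.31% of those tested. Of these, 235 were higher in the irradiated libraries (1.74%) and 212 lower (1.57%).

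The tumours grew subcutaneously in nude mice of the BALB/c strain, aged 6 weeks, from Huh-7, an established human hepatocellular carcinoma line. Treatment started at a mean tumour volume of 150 to 200 mm3. The 6 irradiated tumours were 3 given CS2164 and radiation (CS2164_IR) and 3 given radiation with the co-solvent only (IR). The 6 unirradiated tumours were 3 given CS2164 alone and 3 controls given the co-solvent. CS2164, also called chiauranib, is an oral inhibitor of Aurora kinase B, of VEGF receptors and of PDGFRA, KIT and CSF1R, and was given by gavage at 10 mg/kg per day. Radiation was given on weekdays at 2 Gy per day in 10 fractions. Pentobarbital anaesthesia preceded it. The interval between the last fraction and tumour collection is not given in the sources used here. All samples carry the cell line label Huh-7, while titles name Huh-8 for CS2164, Huh-9 for IR and Huh-10 for CS2164_IR, so that group and title cannot be told apart. Each tumour is labelled as a separate replicate, but no label ties a library to a mouse, so p-values measure the spread between these samples.

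Ionising radiation breaks DNA and produces reactive oxygen. Cells answer within hours through damage kinases and p53, and also through growth factor receptors and the MAP kinase cascade, whose transcription factors include AP-1 (dimers of FOS and JUN proteins). Repeated fractions over days give a later state, in which repair, proliferation, differentiation and contacts with the matrix can all have shifted. Hepatocyte products such as apolipoproteins, plasma proteins and urea cycle enzymes depend on a network of nuclear receptors and HNF factors, and mark how differentiated a liver tumour is.

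Libraries were made from poly-A RNA without strand information and held 12886607 to 16890346 counts each. Levels are given as CPM, counts scaled to library size after TMM normalisation between libraries, and changes as log2 fold with their standard error (SE). The libraries of control replicate 2 and CS2164 replicate 1 resembled their group mates least, with a mean Spearman correlation across genes of 0.979 and 0.973, against 0.982 to 0.993 for the others. Both are unirradiated. Liver tumour genes were expressed throughout, with AFP at 2796 to 6493 FPKM and ALB at 3368 to 7202 FPKM. Summed human markers of endothelial, stromal, immune, skin, muscle, fat and red cells took 0.0226% to 0.0285% of counts in irradiated and 0.0169% to 0.0251% in unirradiated libraries. Blood vessels and stroma of a xenograft come from the mouse, and the handling of mouse reads is not given in the sources used here. In whole tumours, fewer cells of a type and less RNA per cell cannot be told apart.

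Each gene was also tested with edgeR's quasi-likelihood test on the counts, averaging the radiation effect over both arms, with Benjamini-Hochberg adjusted p under 0.05 as the threshold. By this test 467 genes rose (3.45% of those tested) and 563 fell (4.16%), 1030 in all (7.62%). Of the genes without overlap, 182 rose and 169 fell, together 351 or 2.6% of the tested genes, and 96 did not pass. The lack of overlap and the test use the same values, so neither backs the other. A further 679 genes passed although at least 1 library crossed over. Among the 1030, the change had opposite signs with and without CS2164 in 34, of which 5 were called as rises and 29 as falls. Among genes without overlap, those that were higher had a median log2 difference of 0.66 and a range of 0.16 to 2.61. Those that were lower had a median of -0.43 and a range of -2.04 to -0.15. At least 2-fold differences were seen in 46 of the higher and 14 of the lower genes. The number that passed changed with the libraries used: it was 1602 without control replicate 2, 2393 without CS2164 replicate 1 and 3677 without both. It fell to between 442 and 677 without control replicates 1 or 3, CS2164 replicates 2 or 3, IR replicates 1 or 3, or any CS2164_IR replicate. The number without overlap was 888, 1101 and 1903 in the fits without control replicate 2, without CS2164 replicate 1 and without both. With upper-quartile scaling, which lifted the median of all genes by little (0.05 against 0.02), the split was 626 rises to 423 falls.

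Transcription factors and growth signals made up part of the shared rise. FOSL1, an AP-1 subunit that MAP kinase signalling induces (ENSG00000175592, chromosome 11, 65892049 to 65900573), stood at 1.59, 2.03 and 4.69 CPM (lowest, median and highest) in irradiated libraries and at 0.311, 0.469 and 1.08 CPM in unirradiated libraries. The lowest irradiated library was therefore above the highest unirradiated one, although the gene was low throughout. Its averaged log2 change was 2.13 ± 0.31 (SE, 6 against 6 libraries, adjusted p of 0.00109). AREG, which encodes the EGF receptor ligand amphiregulin, stood at 1.63, 1.99 and 2.63 CPM in irradiated and 0.327, 0.563 and 1.01 CPM in unirradiated libraries, a log2 change of 1.71 ± 0.31. DUSP4, a phosphatase that switches off MAP kinases, stood at 12.7, 13.9 and 20.3 CPM against 4.84, 5.80 and 8.96 CPM in unirradiated libraries. It rose by 1.26 ± 0.15 (adjusted p of 0.000239). No library crossed over in AREG or DUSP4 either, and the change of FOSL1 was 1.10 with CS2164 and 3.16 without it (difference between strata -2.05 ± 0.64, adjusted p of 0.114).

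The ID proteins bind basic helix-loop-helix transcription factors and keep them off DNA, and BMP signals induce them. ID1, the most abundant of the family members named here, had 515, 563 and 676 CPM in irradiated libraries and 260.2, 310.2 and 420.2 CPM in unirradiated libraries. It rose by 0.84 ± 0.11. ID3 rose by 0.69 ± 0.11, with a lowest irradiated level of 186 CPM and a highest unirradiated level of 150.5 CPM. ID4 rose by 1.25 ± 0.16, with a median of 10.5 CPM in irradiated and 4.70 CPM in unirradiated libraries. JAG1, a ligand of Notch receptors (chromosome 20, 10637684 to 10673999), had 96.2, 138 and 170.1 CPM in irradiated and 58.5, 77.8 and 85.2 CPM in unirradiated libraries and rose by 0.86 ± 0.12. The rises of the 3 ID genes, JAG1 and DUSP4 each passed in every fit that left out 1 library.

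**Figure D1:**
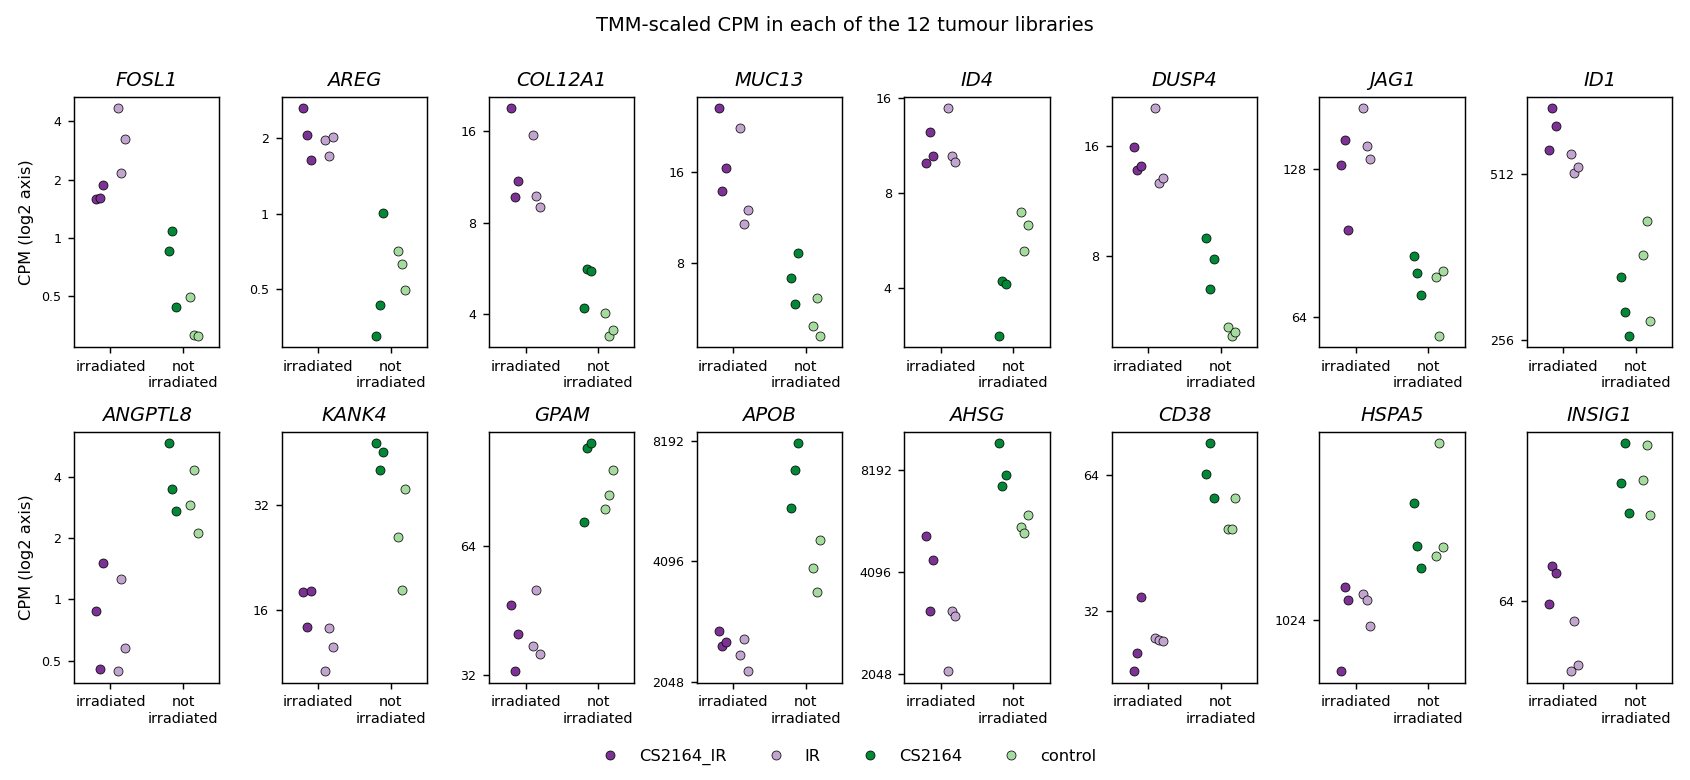
Levels of 8 genes that were higher (top row) and 8 that were lower (bottom row) in irradiated tumours, in TMM-scaled CPM on a log2 axis, with 1 point per library. In every panel the 6 irradiated points, CS2164_IR in dark purple and IR in light purple, lie on one side of the 6 unirradiated points, CS2164 in dark green and control in light green. FOSL1 lies under 5 CPM in every library and APOB at 2179 CPM or more.

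Of 24 tested AP-1 and early response genes 4 rose and 1 fell (20.8% passed, against 7.62% of all tested genes), and the median log2 difference was 0.28 against 0.02 over all tested genes. Beside FOSL1, NR4A2, an early-induced nuclear receptor, rose by 0.66 ± 0.15, and MAFK and KLF4 rose as well. BTG2, an antiproliferative gene that p53 also induces, fell by 0.33 on the log2 scale, with a highest irradiated level of 62.0 CPM and a lowest unirradiated level of 62.5 CPM. Of 23 listed genes that report or dampen MAP kinase activity 3 rose (13.04%) and none fell. The 3 were DUSP4, AREG and ETV4, an ETS factor. DUSP9, a MAP kinase phosphatase that the list does not hold, passed as a fall, also in every fit that left out 1 library. ETV4 overlapped between groups, at 28.7 to 47.9 CPM in irradiated and 22.1 to 47.0 CPM in unirradiated libraries. Of 22 cytokine genes 4 rose and 1 fell (22.7%). The largest change was in INHBA, the activin A subunit, at 0.398 to 1.21 CPM in irradiated and 0 to 0.392 CPM in unirradiated libraries, so its log2 value of 2.40 ± 0.55 rests on few reads. IL18, an inflammasome-processed cytokine, rose by 1.30 ± 0.31, and INHBB, the other activin subunit, fell by 0.58. The calls of INHBA and IL18 ended without IR replicate 1 (adjusted p of 0.0509 and 0.0611), BTG2 ended in 9 of the fits that left out 1 library (up to 0.0803) and ETV4 also in 9 (up to 0.102).

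AP-1 and serum response factor are among the nuclear ends of MAP kinase signals, and TEAD and CRE sites were searched beside theirs. No site specific to BMP or Notch signals was searched. The promoters of AREG, MUC13, COL12A1 and HSPA5 are shown, of which only AREG belongs to the groups above. They were picked from the named genes because they held a match, so their matches follow from the choice. Each line gives the 250 bases before the start that RefSeq gives the gene, 5′ to 3′ on the gene's strand, on GRCh38.p14, with matches to AP-1 (TGANTCA), TEAD (GGAATG) or CRE (TGACGTCA) in capitals, searched on both strands.
AREG promoter, chr4:74444886-74445135, plus strand: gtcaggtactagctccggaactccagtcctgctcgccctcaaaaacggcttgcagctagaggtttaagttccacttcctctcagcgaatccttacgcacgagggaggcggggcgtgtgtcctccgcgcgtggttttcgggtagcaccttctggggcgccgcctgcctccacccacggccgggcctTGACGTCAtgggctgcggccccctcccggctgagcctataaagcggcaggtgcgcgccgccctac
MUC13 promoter, chr3:124934752-124935001, minus strand: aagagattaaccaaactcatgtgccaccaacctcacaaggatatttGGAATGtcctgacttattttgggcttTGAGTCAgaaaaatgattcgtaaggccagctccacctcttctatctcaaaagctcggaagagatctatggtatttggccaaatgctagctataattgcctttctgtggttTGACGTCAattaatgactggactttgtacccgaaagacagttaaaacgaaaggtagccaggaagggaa
COL12A1 promoter, chr6:75206054-75206303, minus strand: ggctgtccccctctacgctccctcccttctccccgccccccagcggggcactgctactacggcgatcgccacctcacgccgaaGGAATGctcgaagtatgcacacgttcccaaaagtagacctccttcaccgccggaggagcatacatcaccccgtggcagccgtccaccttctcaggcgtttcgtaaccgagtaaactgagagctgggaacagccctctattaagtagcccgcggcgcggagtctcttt
HSPA5 promoter, chr9:125241344-125241593, minus strand: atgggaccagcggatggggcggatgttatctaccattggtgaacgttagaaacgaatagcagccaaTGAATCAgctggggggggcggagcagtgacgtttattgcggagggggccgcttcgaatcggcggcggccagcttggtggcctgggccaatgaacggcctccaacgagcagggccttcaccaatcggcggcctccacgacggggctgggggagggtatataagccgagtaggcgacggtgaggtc
AREG held a CRE from 65 to 58 bases before its start. MUC13, which encodes a membrane mucin, held all 3 kinds of match, a TEAD match starting 204 bases before, an AP-1 match starting 178 bases before and a CRE starting 68 bases before its start. COL12A1 held a TEAD match starting 167 bases before, and HSPA5, a chaperone gene that fell, an AP-1 match starting 184 bases before its start. Promoters were matched for 198 of the 235 higher genes, 174 of the 212 lower genes and 10949 of all tested genes. An AP-1 match was present in 13 of the higher (6.57%), 9 of the lower (5.17%) and 432 of all (3.95%). For TEAD the shares were 11.1%, 8.62% and 9.64%, for CRE 4.04%, 2.87% and 2.77%, for the GC box (GGGCGG) 55.6%, 65.5% and 65.2%, and for the SRF CArG box 2.53%, 1.15% and 1.03%. A CRE match does not contain an AP-1 match. Of the signal genes above whose promoters were listed by name, AREG and ID4 held an AP-1, TEAD, CRE or CArG match. ID1, ID3, JAG1, INHBA and BTG2 held none. FOSL1, DUSP4 and NR4A2 were not listed, nor were genes whose groups overlapped, such as ETV4 and IL18. These are matches of letters, given without a test.

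Genes of the cytoskeleton, the cell surface and the matrix were among the other large rises. COL12A1, a collagen that bridges fibrils (chromosome 6, 75084326 to 75206051), had 9.00, 10.3 and 19.02 CPM in irradiated and 3.39, 4.12 and 5.63 CPM in unirradiated libraries. It rose by 1.502 ± 0.20 (adjusted p of 0.000435). MUC13 had 10.8, 15.1 and 26.0 CPM in irradiated and 4.60, 6.00 and 8.63 CPM in unirradiated libraries and rose by 1.45 ± 0.20. ACTN3, an alpha-actinin best known from fast muscle fibres, had 6.03, 9.37 and 12.6 CPM in irradiated and 2.42, 2.89 and 5.17 CPM in unirradiated libraries. It rose by 1.54 ± 0.20. In these 3 genes no library crossed over, and the rise passed both with and without CS2164.

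MYBPC3, the cardiac myosin-binding protein C, had the largest rise among the genes without overlap that averaged at least 5 CPM after radiation, 1.81 ± 0.33, with 8.03, 9.27 and 34.7 CPM in irradiated and 2.49, 3.53 and 6.39 CPM in unirradiated libraries. The highest value came from CS2164_IR replicate 1, and with both distant libraries, named above, left out the change was 1.63 with an adjusted p of 0.061. LYVE1, a hyaluronan receptor known from lymphatic endothelium, rose by 1.69 ± 0.21, but it overlaps IRAG1. F2RL2, a protease-activated receptor, rose by 1.43 ± 0.24 and overlaps IQGAP2, which changed by -0.45. Genes are said to overlap one another here where their whole spans, introns included, share bases. Where exons share bases, reads cannot be assigned without strand information, and whether they do was not examined. SPTBN5, a beta spectrin that overlaps PLA2G4B, rose by 1.21 ± 0.19, and GARIN1A by 1.24 ± 0.21. TUBB3, a neuronal beta tubulin, rose by 1.08 ± 0.20, at 4.95, 7.42 and 10.7 CPM in irradiated and 2.14, 3.86 and 4.66 CPM in unirradiated libraries. Tubulin genes are close copies of each other, and how reads that fit several copies were counted is not given in the sources used here.

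Of 37 tested actin and SRF target genes 9 rose and 1 fell, which is 24.3% and 2.70% of the list against 3.45% and 4.16% of all tested genes. The list median was 0.17. Beside ACTN3 and TUBB3, the 9 held VIM (vimentin), KRT19 (a biliary and progenitor keratin), CNN1 (calponin), FLNC (filamin C), FILIP1L, and the tubulins TUBA1A and TUBB2B. The share that rose is therefore not one of actin genes alone. CALD1, a caldesmon, fell by 0.41. By arm, FLNC changed by 0.03 with CS2164 and by 1.57 without it, VIM by 0.87 with CS2164 and by -0.00 without it. Of 57 matrix and epithelial-mesenchymal genes 4 rose and 6 fell, and the median was -0.12 with CS2164 and 0.27 without it. TIMP1, a metalloprotease inhibitor, rose by 0.98 ± 0.18, although its groups overlapped at 11.3 to 26.7 CPM in irradiated and 7.94 to 13.8 CPM in unirradiated libraries. The 6 that fell were FN1, NID1, LAMC1, CDH1, CDH2 and ITGA2. Of these FN1, which encodes fibronectin, changed by -1.08 with CS2164 and by -0.11 without it, NID1 by -1.02 and -0.11, LAMC1 by -0.81 and 0.01, and ITGA2 by -0.92 and 0.00. Of 25 angiogenic factor and co-receptor genes 5 rose and 1, ANGPTL8, fell (24% passed, against 7.62% of all tested genes). ADAMTS1 rose by 0.50 ± 0.09 (0.08 with CS2164 and 0.92 without it) and NRP2 by 0.67 ± 0.16 (0.26 and 1.09). ANGPT2 rose by 1.20 ± 0.33. ANGPT2 was at most 2.03 CPM in irradiated and 0.852 CPM in unirradiated libraries. NRP2 did not pass without IR replicate 3 (adjusted p of 0.0516).

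Fibroblasts and pericytes make matrix and contractile proteins. Of 14 of their markers 9 could be tested, and 2 of those rose, LUM by 0.91 ± 0.23 and MCAM by 0.48 ± 0.12, while THY1 and POSTN had 0 counts in all libraries. The 14 together took 0.0125% to 0.0166% of counts in irradiated and 0.0080% to 0.0161% in unirradiated libraries. Of 15 macrophage and granulocyte markers 4 could be tested and LYZ rose, by 0.68 ± 0.17, while ADGRE1, C1QA, C1QB and S100A8 had 0 counts. Those 15 took 0.00456% to 0.00891% in irradiated and 0.00374% to 0.00490% in unirradiated libraries. LUM, MCAM and LYZ each failed the test in 3 to 5 of the fits that left out 1 library (adjusted p up to 0.0855), and LYZ had 0.0881 after each library's GC and length trends were removed. No endothelial, lymphoid, or skin, muscle and fat marker passed, and ERG, KDR and ROBO4 among the endothelial ones had 0 counts. The part of these markers in the matrix and cytoskeleton values was not tested.

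Plasma proteins and enzymes of hepatocytes were among the genes that fell. APOB, the structural protein of liver-made lipoproteins (chromosome 2, 21001429 to 21044073), had 2179, 2551 and 2744 CPM in irradiated and 3429, 5096 and 8062 CPM in unirradiated libraries. It fell by 1.07 on the log2 scale (SE 0.12, adjusted p of 0.000239). AHSG, the plasma glycoprotein fetuin-A, had 2085, 3140.1 and 5225 CPM in irradiated and 5329, 6656 and 9789 CPM in unirradiated libraries, and its log2 change was -0.999 ± 0.15. Neither gene overlapped, though the highest irradiated library of AHSG lay just under the lowest unirradiated one. HPR, the haptoglobin-related protein, changed by -1.01 ± 0.15, but HP is a near copy that could share its reads, and it overlaps TXNL4B. Of 72 tested plasma protein genes 8 fell and 1 rose, 11.1% and 1.39% of the list. The list median was -0.01 with CS2164 and -0.29 without it. The others that fell were F5 and PLG of the clotting system, complement C3, and the acute phase proteins ORM1 and ORM2. By arm, C3 changed by -1.10 with CS2164 and by 0.03 without it, F5 by -0.73 and -0.27, PLG by -0.71 and -0.79, ORM1 by -0.24 and -0.85, and ORM2 by -0.15 and -0.92. ALB, the main plasma protein, did not pass, with a log2 difference of -0.24 ± 0.16 and 13494 to 25345 CPM in irradiated against 12542 to 23802 CPM in unirradiated libraries. AFP, the fetal counterpart, did not pass either (-0.15 ± 0.16).

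Of 86 hepatic metabolism and transport genes 20 fell and none rose, 23.3% of the list against 4.16% of all tested genes that fell, with a list median of -0.18. By arm the median was -0.07 with CS2164 and -0.34 without it, against 0.04 and -0.01 over all tested genes. CPS1, the first enzyme of the urea cycle, had 11.9, 16.04 and 31.04 CPM in irradiated and 31.04, 49.6 and 83.7 CPM in unirradiated libraries, touching at 31.04 CPM, and changed by -1.53 ± 0.25. PKLR, the liver pyruvate kinase, changed by -1.26 ± 0.19, with -1.27 with CS2164 and -1.25 without it. Its libraries crossed over, at 3.81 to 10.3 CPM in irradiated and 9.17 to 24.0 CPM in unirradiated libraries, and the gene overlaps HCN3. ARG1, which completes the urea cycle, changed by -0.82 ± 0.20, and GLUL, the glutamine synthetase, by -0.34 ± 0.09. GLUL did not overlap, at 509.7 to 597 CPM in irradiated and 652 to 765 CPM in unirradiated libraries. The list also held DAO, an amino acid oxidase, HADHA and CPT1A of fatty acid oxidation, and the transporters SLC22A7, SLC22A9 and ABCG8. Outside the list, ALDH1L1, a folate enzyme of liver, changed by -1.21 ± 0.19 without overlap.

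Of 34 transcription factors of hepatocytes 4 fell and 1 rose. PPARA, the nuclear receptor for fatty acids, changed by -0.66 ± 0.12, RXRA, its partner, by -0.53 ± 0.10 and HNF4A, a central hepatocyte factor, by -0.53 ± 0.11. NR1H4, the bile acid receptor, fell, with -0.01 with CS2164 and -0.94 without it, and NR0B2, a repressor that this receptor induces, rose by 0.65 ± 0.18. HNF4A had 133 to 186 CPM in irradiated and 159 to 334 CPM in unirradiated libraries. In the stratum with CS2164 its change was -0.81, in that without it -0.25, and for PPARA these were -1.06 and -0.26. The differences between strata had an adjusted p of 0.177 for HNF4A and 0.106 for PPARA. Of 15 tested liver tumour markers 1 rose and 2, APOB and HNF4A, fell (20% passed). Values above 0 were found for 8 of the 15, and the median was 0.02 (0.14 with CS2164 and -0.25 without it). SPINK1, a secreted trypsin inhibitor, was the marker that rose, by 1.08 ± 0.19. It had 232, 280.5 and 666 CPM in irradiated and 106, 158 and 228 CPM in unirradiated libraries. Its lowest irradiated and highest unirradiated libraries lay close together, and without both distant libraries the adjusted p was 0.054.

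**Figure D2:**
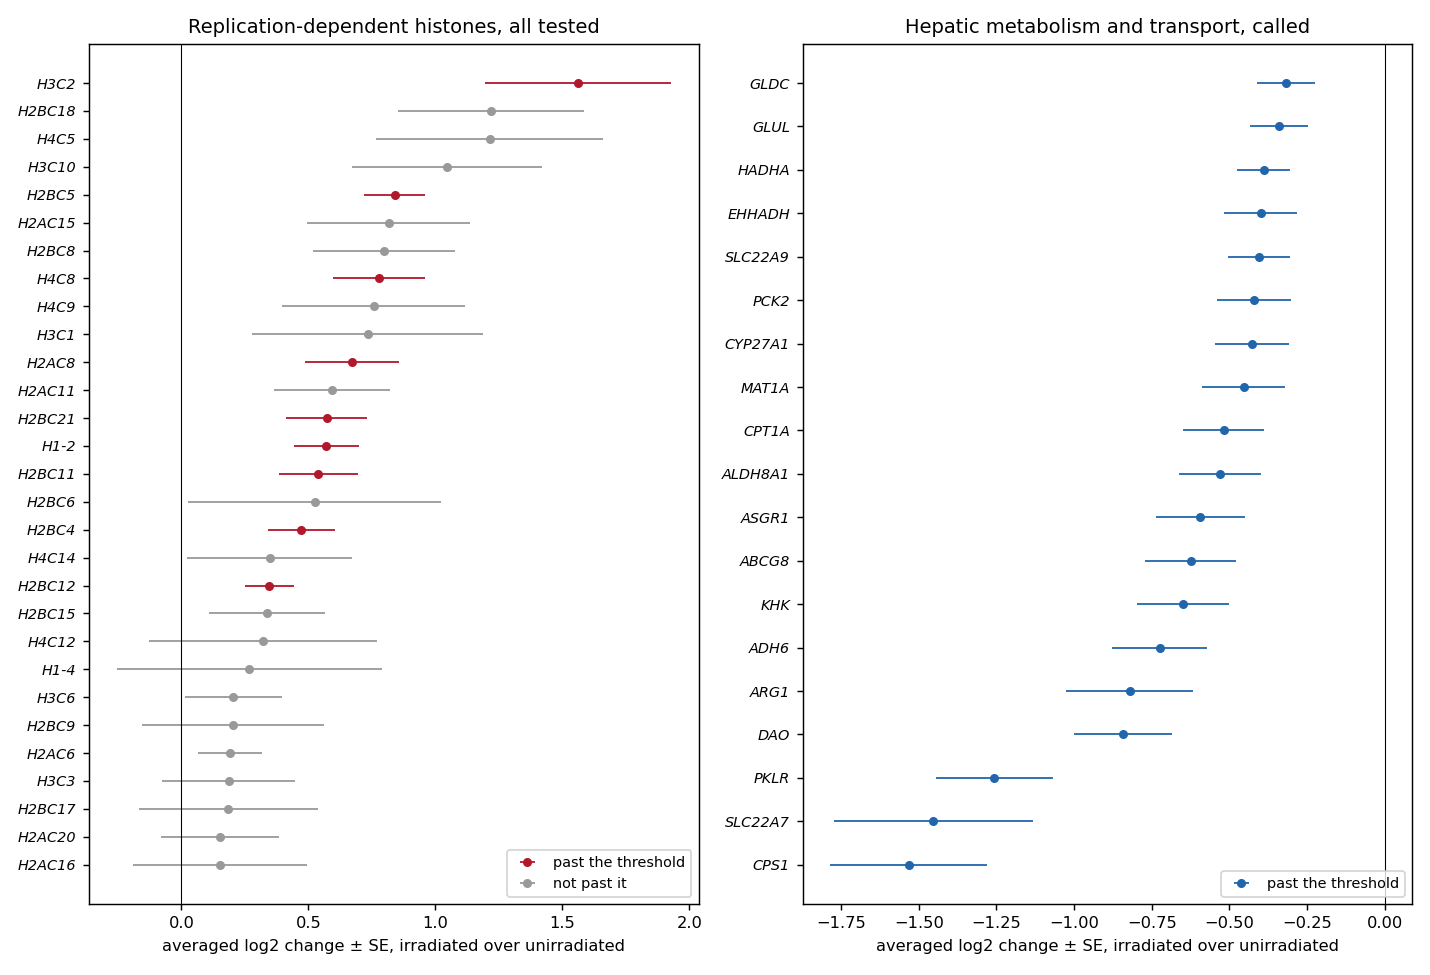
Averaged log2 change of irradiated over unirradiated tumours for all 29 tested replication-dependent histone genes (left) and for 19 of the 20 hepatic metabolism and transport genes that passed the test (right), with bars of 1 SE. All 29 histone genes lie above 0, 9 of them past the threshold (red), and all 19 liver genes shown lie below 0 since they were picked as having passed and none of that list rose.

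Genes of lipid synthesis fell alongside. GPAM, which starts triglyceride synthesis, had 32.6, 38.5 and 50.6 CPM in irradiated and 72.9, 90.5 and 111 CPM in unirradiated libraries, with a change of -1.19 ± 0.13 (adjusted p of 0.000203) and a wide gap between the groups. ANGPTL8, a hepatokine that restrains lipoprotein lipase and that the angiogenic list holds by its name, changed by -2.04 ± 0.33, the largest fall among genes without overlap. Its level was 0.444, 0.726 and 1.51 CPM in irradiated and 2.11, 3.19 and 5.82 CPM in unirradiated libraries. It overlaps DOCK6. Of 28 tested genes of fatty acid and triglyceride synthesis 6 fell and none rose, among them ACSL4 by 0.78, SCD, the desaturase, by 0.50, and DGAT2 and PNPLA3. PNPLA3 changed by -1.27 with CS2164 and by -0.06 without it. The median of that list was -0.41 with CS2164 and -0.07 without it. Of 26 cholesterol genes 5 fell and none rose, and 23 of the 26 had a value below 0. Their median was -0.17 with CS2164 and -0.25 without it. INSIG1, which holds back sterol synthesis, changed by -0.48 ± 0.09 and HMGCS1, an early enzyme of the pathway, by -0.46 ± 0.10, both without overlap. INSIG1 had 53.9, 62.2 and 69.6 CPM in irradiated and 78.7, 85.4 and 93.7 CPM in unirradiated libraries.

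Genes of the endoplasmic reticulum were a smaller group. Of 30 tested genes of its stress response 6 fell and none rose (20% of the list), with a median of -0.22. SEL1L, a part of the degradation machinery, had 64.8, 65.7 and 73.0 CPM in irradiated and 81.8, 85.7 and 135 CPM in unirradiated libraries and changed by -0.51 ± 0.10. PDIA6, a disulphide isomerase, changed by -0.45 ± 0.09. HSPA5, the chaperone BiP, whose promoter is shown above, had 864, 1094 and 1146 CPM in irradiated and 1219, 1309 and 1845 CPM in unirradiated libraries, with a change of -0.42 ± 0.12. XBP1, CANX and PDIA4 did not overlap between groups either but did not pass the test, with adjusted p of 0.0526, 0.0916 and 0.0699. HSPA5 did not pass in 9 of the fits that left out 1 library (adjusted p up to 0.107).

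Surface and signalling genes were among the other large falls. CD38, an enzyme that consumes NAD, had 23.5, 27.5 and 34.4 CPM in irradiated and 48.6, 57.0 and 75.4 CPM in unirradiated libraries, and changed by -1.06 ± 0.11 (adjusted p of 0.000203). The groups were well apart, and the fall passed in both strata. KANK4, a member of a family of actin regulators, changed by -1.25 ± 0.15, with 10.7 to 18.1 CPM in irradiated and 18.3 to 47.9 CPM in unirradiated libraries. NPTX2, a neuronal pentraxin, changed by -1.32 ± 0.21 and SORL1, a sorting receptor, by -1.01 ± 0.13. HCAR3, a receptor for hydroxylated fatty acids with a near-identical neighbour, HCAR2, changed by -1.71 ± 0.29, and its highest level, 20.8 CPM, came from CS2164 replicate 1. PRLR, the prolactin receptor, changed by -0.77 ± 0.15, NEK6, a mitotic kinase, by -0.77 ± 0.12 and C1orf115 by -0.88 ± 0.10.

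Genes of the DNA damage response passed at about the share of all genes. Huh-7 is a p53 mutant line, and the part of p53 in these values was not tested. Over the 5 lists of p53 targets, damage sensing and repair, 9 of 168 genes rose and 4 fell, 7.74% together, against 7.62% of all tested genes. CDKN1A, the p53-induced cell cycle inhibitor, had 16.9, 20.9 and 24.6 CPM in irradiated and 17.4, 26.2 and 30.8 CPM in unirradiated libraries, a log2 difference of -0.23 ± 0.13 (adjusted p of 0.276). MDM2 differed by 0.02 ± 0.12 and GDF15, a stress cytokine, by -0.18 ± 0.43, and their groups overlapped. The direction of both turned when libraries were left out. Of 31 tested p53 targets 3 rose and 2 fell (16.1%), with a median of 0.00. PLK2, a polo-like kinase, rose by 0.86 ± 0.16 and did not overlap, at 8.98, 13.1 and 15.99 CPM in irradiated and 5.70, 7.46 and 8.52 CPM in unirradiated libraries. PLK3 and GADD45A rose as well, while CMBL and BTG2 fell. Of 31 damage sensing and checkpoint genes 1 rose (3.23%), RAD9A by 0.41 ± 0.10, and it overlaps 3 other genes. Of 44 homologous recombination and Fanconi genes 3 rose (6.82%), PSMC3IP, EME1 and XRCC3, all of which overlap another gene. Of 23 end joining genes SHLD3 rose by 0.91 ± 0.20 and PARP1 fell by 0.40 (8.70% passed). Of 41 excision and mismatch repair genes MUTYH rose by 1.04 ± 0.25 and UNG fell by 0.42 (4.88%). SHLD3, at 4.25 CPM or less, changed by 1.54 with CS2164 and by 0.28 without it, and overlaps TRAPPC13 and TRIM23. MUTYH, at 2.95 CPM or less, overlaps TOE1. PARP1, which marks DNA breaks, did not overlap, at 204 to 271 CPM in irradiated and 289 to 366 CPM in unirradiated libraries. The calls of PLK3, CMBL, PSMC3IP, EME1, XRCC3, PARP1 and MUTYH each ended without 1 or more single libraries (largest adjusted p of 0.0928).

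Of 72 mitosis genes 1 passed (1.39%), MKI67, the proliferation antigen, with -0.58 ± 0.15. It had 166 to 257 CPM in irradiated and 158 to 399.7 CPM in unirradiated libraries, so the groups overlapped, and it changed by -0.91 with CS2164 and by -0.24 without it. AURKB, a target of CS2164, differed by 0.12 ± 0.09 and did not pass. Of 56 replication genes 2 rose and 2 fell (7.14% passed, near the 7.62% of all tested genes). RRM1, the large subunit of ribonucleotide reductase, changed by -0.49 ± 0.10 without overlap, at 53.1 to 70.3 CPM in irradiated and 73.3 to 93.7 CPM in unirradiated libraries, and RRM2, its partner, fell too. POLA2 of the primase complex and ORC6 of the origin complex rose. MKI67, POLA2 and ORC6 did not pass in 8 fits each that left out 1 library (adjusted p up to 0.0923).

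All 29 tested replication-dependent histone genes had a value above 0, with a median of 0.54 (0.55 with CS2164 and 0.56 without it), and 9 passed as rises, 31.0% of the list. These genes are expressed in S phase, and most of their transcripts lack the poly-A tail by which the libraries were selected, so the counts cover a minor, tailed part. H2BC5 had 47.1, 53.7 and 83.0 CPM in irradiated and 26.8, 32.7 and 36.1 CPM in unirradiated libraries, with no crossing, and rose by 0.84 ± 0.12 (adjusted p of 0.000819). H1-2, a linker histone, had 68.9 to 103 CPM in irradiated and 33.4 to 84.6 CPM in unirradiated libraries and rose by 0.57 ± 0.13. H4C8 and H2AC8 did not overlap either. H4C8 did not pass without IR replicate 1 (adjusted p of 0.0538). Histone genes are short near copies of each other. After removal of GC and length trends the list median was 0.37, 4 of the list passed as rises, and H1-2 had an adjusted p of 0.237.

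The 13 mitochondrially encoded genes all had values above 0, and 3 rose: MT-ND1 by 0.66 ± 0.15, MT-ND4L by 0.60 ± 0.16 and MT-CO3 by 0.49 ± 0.14, all subunits of the respiratory chain. In all 3 at least 1 library crossed over, and MT-ND4L and MT-CO3 each share bases with a neighbouring gene. The list median was 0.69 with CS2164 and 0.08 without it. Together these genes took 9.01% ± 1.12 of all counts in irradiated and 6.71% ± 1.39 in unirradiated libraries (SD, n = 6 each), a difference of 2.30 percentage points with a two-sided exact p of 0.01 when labels were permuted within strata. The smallest p this design allows is 0.005. Within strata the means were 9.25% in CS2164_IR against 5.596% in CS2164, and 8.78% in IR against 7.82% in control. Without both distant libraries the difference was 2.12 points with an exact p of 0.05. MT-ND4L and MT-CO3 did not pass in 6 and 8 of the fits that left out 1 library (adjusted p up to 0.0989), and after GC and length trends were removed MT-ND1 was the 1 gene of the list that passed.

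The other lists are set beside the 7.62% of all tested genes that passed. Of 37 interferon-stimulated genes 1 rose and 2 fell (8.11%): IFITM3 rose by 0.49 ± 0.14, IFIT1 fell by 0.57 (0.04 with CS2164 and -1.17 without it) and USP18, which dampens interferon signalling, fell by 0.37 without overlap. Of 42 hypoxia and glycolysis genes NDRG1 alone passed (2.38%), as a fall of 0.75, although 33 of 42 had values below 0 and the median was -0.25. That median was -0.05 without both distant libraries. Of 35 NRF2 targets AKR1B10, GSR and NQO1 fell and GPX2 rose (11.4%). Of 36 apoptosis regulators HRK rose (2.78%), at no more than 1.44 CPM in irradiated and 0.781 CPM in unirradiated libraries, while BCL2L1, which blocks cell death, was higher without overlap and MCL1, which does the same, was lower without overlap. BCL2L1 and MCL1 did not pass, with adjusted p of 0.165 and 0.0658. Of 19 MHC class I genes ERAP1 fell (5.26%), of 79 ribosomal protein genes 1 rose (1.27%), and of 20 YAP and TEAD targets CCN2 rose while DLC1 and AMOTL1 fell (15%). AMOTL1 changed by -1.03 with CS2164 and by 0.03 without it. The calls of IFITM3, IFIT1, USP18, NDRG1, GSR, GPX2, HRK, ERAP1, CCN2, DLC1 and AMOTL1 each ended in 4 to 10 fits that left out 1 library, with adjusted p up to 0.134, and that of AKR1B10 without IR replicate 3 (0.053).

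**Figure D3:**
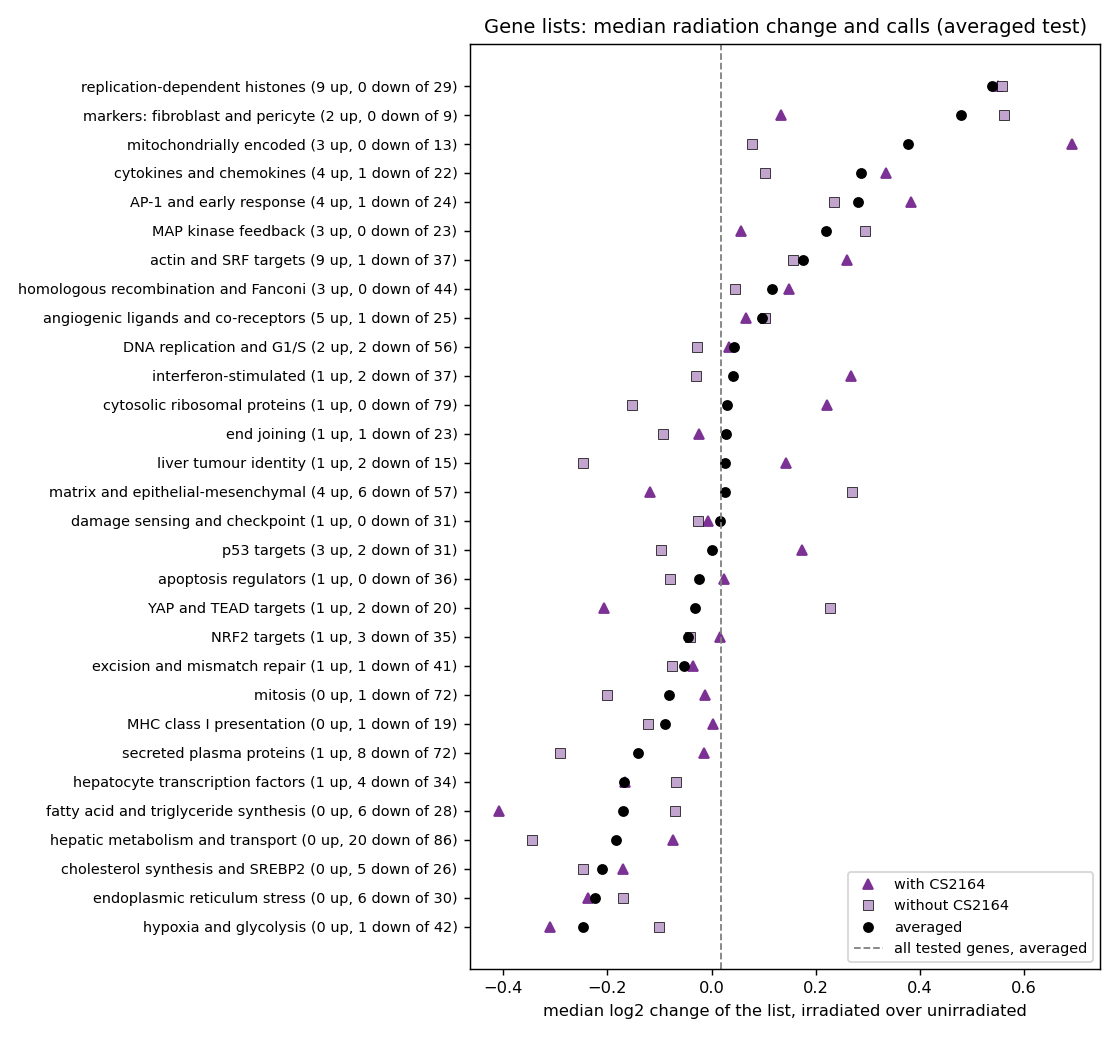
Median log2 change of irradiated over unirradiated tumours for each gene list with at least 5 tested members, averaged (black circles), with CS2164 (purple triangles) and without it (light squares). The dashed line is the median of all tested genes, 0.02, and the labels give how many members rose and fell. Of the averaged medians, that of histones lies farthest to the right at 0.54 and that of hypoxia and glycolysis farthest to the left at -0.25.

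How far radiation had the same effect in both arms was examined in 3 ways. Within the same fit, 1310 genes passed with CS2164 (9.69%; 3.78% as rises and 5.91% as falls) and 59 without it (0.436%; 0.207% and 0.229%). Of the 235 higher genes without overlap 9 passed in both strata, 106 with CS2164 and 18 without it, and of the 212 lower genes 10 passed in both, 112 with CS2164 and 14 without it. The change was larger with CS2164 in 149 of the 235 and in 150 of the 212. The number that passed with CS2164 was 311 when CS2164_IR replicate 3 was left out and 2058 when control replicate 2 was, and that without CS2164 was 0 when IR replicate 1 was left out and 451 when CS2164 replicate 1 was. Across all tested genes the 2 effects correlated weakly (Pearson 0.222, Spearman 0.133, 13521 genes that share scaling and GC trends), which is a description.

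For the second, each arm was fitted alone, so that genes passing in one could be looked up in libraries that had no part in choosing them. Of 137 genes that passed without CS2164, 112 (81.8%) had the same direction with it, where 51.3% of all tested genes were higher. Of the 137, 57 had the same direction with an unadjusted p under 0.05 and 2 the opposite one, 43.1% together, against 24.7% of all tested genes in that arm. Of 844 genes that passed with CS2164, 473 (56.0%) had the same direction without it, and 152 had an unadjusted p under 0.05 against 12 opposite. Together these are 19.4% of the 844, near the 18.6% of all tested genes in that arm. The same direction was found for 128 of the 205 rises (62.4%), where 48.9% of all tested genes were higher, and 345 of 639 falls (54.0%), where 51.1% were lower. After removal of GC and length trends the shares were 86.8% of 304 and 68.4% of 2413, and without control replicate 2 and CS2164 replicate 1 they were 91.6% of 807 and 84.3% of 2838.

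For the third, the difference between strata was tested itself. By edgeR 0 genes passed (0%), 2732 had an unadjusted p under 0.05, voom of limma called 0 and DESeq2 639. The lowest p among genes of at least 5 CPM were those of IGF2R, the receptor that clears IGF2 from the cell surface, SALL2, a zinc finger factor, and NOMO3, a membrane protein with near-identical copies, each with an adjusted p of 0.0839. IGF2R changed by -1.12 ± 0.16 with CS2164 and by 0.27 ± 0.16 without it, and its groups overlapped, at 198 to 257 CPM in irradiated and 152 to 545 CPM in unirradiated libraries. In simulated counts the test of the difference found 43.3% of 2-fold changes, so a call of 0 does not show that the strata responded alike.

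**Figure D4:**
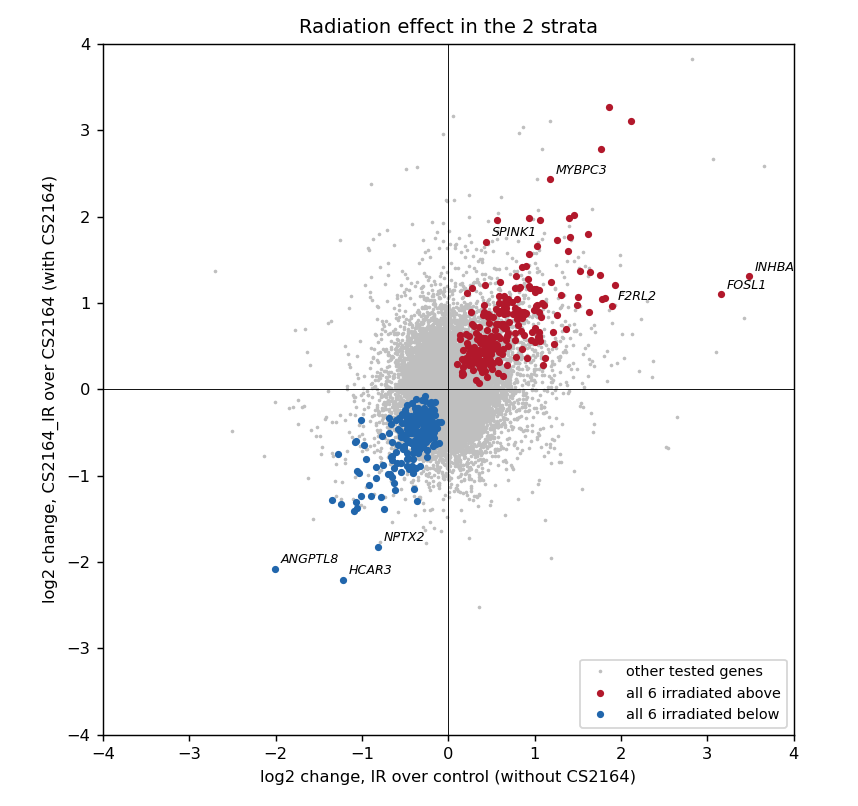
Radiation effect with CS2164 (vertical axis, CS2164_IR over CS2164) against that without it (horizontal axis, IR over control), as log2 changes, 1 point per tested gene, with 1 gene outside the plotted range. Red points are the 235 genes with all 6 irradiated libraries above all 6 unirradiated ones and blue points the 212 with all below, which by the rule lie in the upper right and lower left, while the grey cloud of other genes is close to round.

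Members differed from all tested genes in GC content and length, which the rule did not use. Genes that were higher without overlap had a median transcript GC content of 56.9%, those that were lower 45.9% and all tested genes 48.7%. Their median lengths were 4691 bases for the higher, 5896.5 for the lower and 5236 for all, and their median levels 15.9, 66.2 and 26.9 CPM. Of the higher genes 90 of 235 overlap another gene, and 42 of 212 of the lower, while the share over all tested genes was not counted. By chromosome, 32 of the higher genes lay on chromosome 19, which is 3.33% of the 961 genes tested there against 1.74% of all, and 3 of the lower genes did. Across genes the log2 change had a Spearman correlation with GC content of -0.101 with CS2164 and of 0.439 without it. Genes share these trends, so they are not independent points. With the trends removed from each library 993 of the 1030 calls were kept among 2374, 264 of the 447 genes were still free of overlap among 664, and no call turned its sign.

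**Figure D5:**
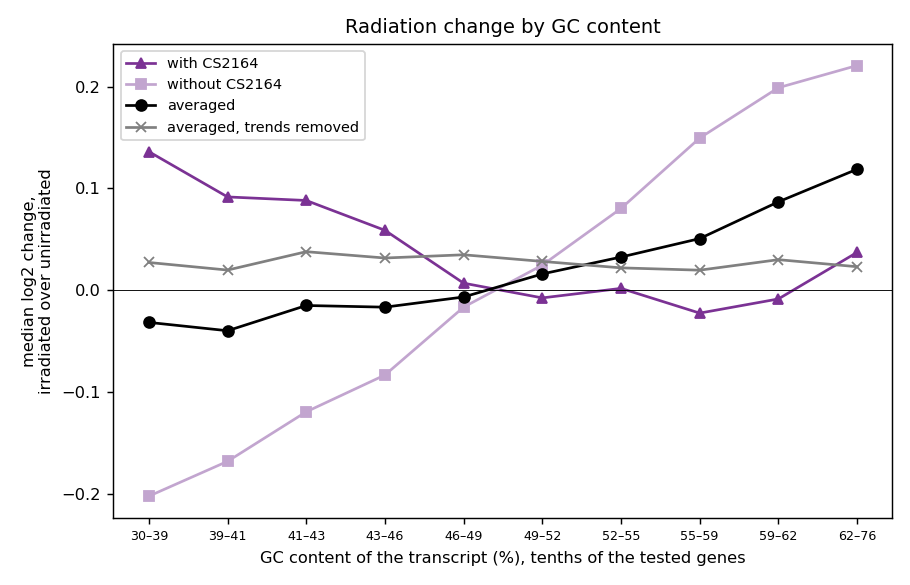
Median log2 change of irradiated over unirradiated tumours in each of 10 equal bins of the tested genes by transcript GC content, with CS2164 (dark purple triangles), without CS2164 (light squares), averaged (black circles) and averaged with each library's GC and length trends removed (grey crosses). With CS2164 the median is 0.14 in the GC-poorest and 0.04 in the GC-richest bin, without it these are -0.20 and 0.22, and with the trends removed it stays between 0.02 and 0.04.

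The edge of the rule was narrow. Just inside it lay MCL1, with 226 to 242 CPM in irradiated and 243 to 318 CPM in unirradiated libraries, and IPO5, a nuclear import receptor, whose highest irradiated and lowest unirradiated libraries were both at 165 CPM after rounding. Just outside lay DUSP9, a MAP kinase phosphatase, with 308 to 469.5 CPM in irradiated and 469 to 641 CPM in unirradiated libraries, and 1 gene without a symbol in the table. DUSP9 passed the test as a fall (adjusted p of 0.0119) and so did IPO5 (0.0362), while MCL1 did not. The call of IPO5 ended in 9 fits that left out 1 library, with adjusted p up to 0.0952.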

How the data were processed

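Poly-A RNA of 12 Huh-7 xenograft tumours was sequenced. The authors deposited counts per gene and FPKM values for each library in 1 table. Alignment with HISAT2 2.1.0, counting with HTSeq 0.9.1 and the GRCh38 build are named per the submitters' processing notes, and the annotation release is not given in the sources used here. Deposited counts were used for every test, and the authors' FPKM for gene lengths and to check liver markers. Groups were taken from sample titles.

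Genes were filtered by expression in a group, scaled by TMM and fitted with edgeR 4.0.16 (robust quasi-likelihood, R 4.3.3), with 1 coefficient for each of the 4 groups. Contrasts were IR minus control, CS2164_IR minus CS2164, their average and their difference, with Benjamini-Hochberg adjustment over 13521 genes. Each SE is the log2 change divided by the root of its F value. Overlap was judged on scaled CPM. DESeq2 1.42.0, voom (limma 3.58.1), other scalings and filters, an additive model, a replicate block, a 2-fold minimum, removal of GC and length trends (splines of 4 df per library, with GC content and positions from GENCODE on GRCh38) and leaving out libraries were tried as alternatives. The mitochondrial share was tested by exact permutation within strata over 400 arrangements. The method was tested on simulated counts: for the averaged effect 61.2%, 91.0% and 98.5% of changes of 1.5-fold, 2-fold and 4-fold were found, over 13521 genes. Promoters came from RefSeq, with a match for 78 of 106 named genes.

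The members and lists were chosen with earlier results of these data known. Named genes were the 10 largest rises and falls past the threshold without overlap and at a mean of at least 5 CPM, the 5 largest of each at 100 CPM, up to 3 passing members of each of 36 lists, the 3 lowest p of the difference between strata, 6 genes always looked up, and those nearest to the edge of the rule. Other members of lists, among them GLUL, VIM, FLNC, FN1, ANGPT2 and XBP1, were named after their values were seen. Replicate numbers were not taken as pairs of irradiated and unirradiated tumours. A few genes are not reported here by name, though counts over lists include them.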

Additional observations from a re-analysis of the deposited data

Results flagged for a closer look

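In 16 of 208 sets of 6 libraries, 1 library stood apart from the other 5 by more of the set's whole range than Dixon's criterion allows, which chance does in about 1 set in 20. Of the 16 sets, 10 were irradiated and 6 unirradiated, and CS2164_IR replicate 1 was the library apart in 7 of them and CS2164 replicate 1 in 4. In CS2164_IR replicate 1, MYBPC3 had 34.7 CPM, against 8.03 to 12.5 CPM in the other irradiated libraries. SPINK1 had 666 CPM there, against 232 to 378 CPM in the others, and H2BC5 83.0 CPM, against 47.1 to 58.4 CPM. ALB had 25345 CPM in that library, against 13494 to 17604 CPM in the others, CMBL 25.5 CPM, against 16.7 to 18.1 CPM, and INHBB 25.3 CPM, against 15.8 to 18.9 CPM. ETV4 was low in it, at 28.7 CPM, against 43.1 to 47.9 CPM.

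In IR replicate 1, F2RL2 had 11.3 CPM, against 3.50 to 5.33 CPM in the other irradiated libraries. In CS2164_IR replicate 3, PSMC3IP had 10.5 CPM, against 12.7 to 13.8 CPM, and HRK 0.377 CPM, against 1.11 to 1.44 CPM. Among unirradiated libraries, CS2164 replicate 1 stood apart for HCAR3, at 20.8 CPM, against 4.04 to 8.45 CPM in the others, and for ACTN3, at 5.17 CPM, against 2.42 to 3.32 CPM. It also did for IFITM3, at 141 CPM, against 71.7 to 96.5 CPM, and for IPO5, at 165 CPM, against 179 to 187 CPM. MYBPC3 had 6.39 CPM in control replicate 1, against 2.49 to 3.91 CPM in the others, and IL18 had 1.80 CPM in control replicate 3, against 0.505 to 0.882 CPM.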

How the results depend on the processing

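The number of genes past the threshold for the averaged effect, 1030, was 1571 by DESeq2, 2374 after removal of GC and length trends, 568 in the additive model and 3677 without both distant libraries (control replicate 2 and CS2164 replicate 1). Against a 2-fold minimum 0 genes passed by edgeR, with 62 at an unadjusted p under 0.05 and a smallest adjusted p of 0.819. Leaving out 1 library gave 442 to 2393. Of the 1030 calls, DESeq2 kept 1030, trend removal 993, the fit without both distant libraries 1005 and the additive model 568, and none turned its sign in these 4 fits. The 447 genes without overlap became 1903 without both distant libraries and 474 to 1101 without 1 library. The difference between strata, with 0 calls, had 60 with no filter, 639 by DESeq2, 88 after trend removal, 162 without both distant libraries and 0 to 1 without 1 library. The effect without CS2164, 59 calls, had 20 with the replicate block, 137 in its groups alone and 0 to 451 without 1 library. The effect with CS2164, 1310 calls, had 844 in its groups alone and 311 to 2058 without 1 library. The share of genes called with CS2164 that had the same direction without it, 56.0%, was 68.4% after trend removal and 84.3% without both distant libraries, both chosen after the data were seen. The mitochondrial difference of 2.30 points was 2.12 without both distant libraries, with an exact p of 0.05, and 1.97 to 2.64 without 1 library. MDM2 turned to -0.00377 with no filter, to -0.077 without both distant libraries and ranged over -0.0768 to 0.102 without 1 library. GDF15 turned to 0.55 without both distant libraries and ranged over -0.35 to 0.26 without 1 library. The cause of these changes was not tested. With replicate number as a block 816 genes passed the averaged test (406 rises, 410 falls), and 787 of the 1030 calls were kept. Between each irradiated group and its unirradiated one, 1 of the 6 same-numbered pairs of libraries correlated above 0.1 in their deviations (0.17, CS2164_IR and CS2164), so the numbers were not taken as pairs. All 3 same-numbered pairs of CS2164 and control did (0.174 to 0.216), while their 6 unlike-numbered pairs lay at -0.248 to -0.016, which is a hint from the data and not from the labels. Of the 96 named calls, 60 held in every fit without 1 library and 36 were lost at least once. Depth limits genes under 5 CPM, which were 53 of the 235 higher and 8 of the 212 lower genes without overlap.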
